A study of Mus musculus with 32 samples.

Results

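The 10 genes described here are imprinted growth genes, chosen by name with earlier results of these data known. These genes are *Igf2*, *H19*, *Dlk1*, *Meg3*, *Mest*, *Plagl1*, *Cdkn1c*, *Peg3*, *Grb10* and *Ndn*. They were found by symbol among the 54838 genes of a table of expected counts from mouse skeletal muscle, and each symbol belonged to 1 Ensembl gene. The muscle came from a model of X-linked myotubular myopathy, a severe congenital muscle disease caused by loss of myotubularin (MTM1), a lipid phosphatase. RNA was sequenced from wild-type (WT) and *Mtm1* knockout (KO) mice at postnatal day 1 (P1), P14, P21 and P35, with n=4 libraries per genotype and age and 32 in all. Both genotypes were of the C57BL6/J strain and no treatment was given. The KO mice came from 1 line, first made on a 129 background, that lacks exon 4 of *Mtm1* in the whole animal rather than in muscle alone. The muscle was the tibialis anterior (TA), a muscle of the lower leg. In this line the muscles weaken from around weaning, and P35 is close to the end of life.

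An imprinted gene is transcribed mainly or only from the copy inherited from one parent. Many genes of this class act on growth before and shortly after birth. Those expressed from the paternal copy, such as *Igf2*, *Dlk1*, *Mest*, *Plagl1*, *Peg3* and *Ndn*, include the main growth promoters. Several expressed from the maternal copy, such as *Cdkn1c* and *Grb10*, restrain growth. *Ndn*, although paternally expressed, is described below with the growth inhibitors because its protein restrains proliferation. In muscle, insulin-like growth factor 2 drives myoblast differentiation, and the decline of imprinted growth genes after birth accompanies the slowing of body growth. Counts per gene do not separate the parental copies, so the levels below carry no information on imprinting itself.

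Each library held between 49321035 and 85631408 counts. Levels are given as counts per 1000000 counts (CPM) on 1 scale for all 32 libraries, set by the trimmed mean of M-values (TMM), and levels of different genes are compared only as CPM per kilobase of exon. *Mtm1* was at 5.26 to 6.02 CPM in WT and 2.32 to 3.91 in KO at P1, and at 18.9 to 24.9 CPM in WT and 2.64 to 4.51 in KO at the 3 later ages, so no KO library reached the WT range of its age. All 10 myofibre markers, among them *Acta1* and *Ckm*, were counted in each group, and their summed level lay between 19366 and 37519 CPM at P1 and between 83555 and 221154 CPM at P21 and P35. The P1 libraries also carried 1806 to 6590 CPM of 9 keratinocyte markers, against at most 35.4 CPM at P21 and P35, and 507 to 878 CPM of 8 chondrocyte and osteoblast markers, against at most 202 CPM at P21 and P35.

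Several of the 10 genes are neighbours. On chromosome 7, *Igf2* (chr7:142650766-142666816, minus strand) and the long non-coding RNA gene *H19* (chr7:142575529-142578143, minus strand) are separated by 72622 bases. On chromosome 12, *Dlk1* (chr12:109452823-109463336, plus strand) and the long non-coding RNA gene *Meg3* (chr12:109541001-109571726, plus strand) are separated by 77664 bases. Another 3 of the genes are on chromosome 7 but far from one another: *Peg3* (chr7:6703892-6730431, minus strand), *Ndn* (chr7:62346569-62350262, plus strand) and *Cdkn1c* (chr7:143458339-143461050, minus strand). *Mest* is at chr6:30723547-30748465 on the plus strand, *Plagl1* at chr10:13060504-13131694 on the plus strand and *Grb10* at chr11:11930508-12038683 on the minus strand. All positions are those of GENCODE M21 on GRCm38.

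The 250 bases before the annotated start were taken from RefSeq (GRCm38.p6) for 8 of the 10 genes, in 15 windows because *Igf2*, *Mest*, *Meg3* and *Grb10* have more than 1 start. No window was available here for *H19* or *Cdkn1c*. The windows are shown for *Igf2*, the protein-coding gene with the highest level per kilobase at P1, and for *Meg3*, *Peg3* and *Ndn*. These 3 passed the main thresholds for KO against WT, *Meg3* at P21 and *Peg3* and *Ndn* at P35. The *Meg3* call was lost in 7 of 8 fits that left out 1 library. Capitals mark each CpG, the dinucleotide at which imprinted control regions are methylated on 1 parental copy. The windows are chr7:142657497-142657746 (minus strand) for *Igf2*, chr12:109540746-109540995 (plus strand) for *Meg3*, chr7:6730420-6730669 (minus strand) for *Peg3* and chr7:62348027-62348276 (plus strand) for *Ndn*, each read 5′ to 3′ on the strand of its gene. RefSeq and GENCODE place some starts differently: by the GENCODE positions given above, the *Igf2* window lies inside the gene and the *Ndn* window inside its only exon, and the *Peg3* window overlaps the gene's first bases.
Igf2: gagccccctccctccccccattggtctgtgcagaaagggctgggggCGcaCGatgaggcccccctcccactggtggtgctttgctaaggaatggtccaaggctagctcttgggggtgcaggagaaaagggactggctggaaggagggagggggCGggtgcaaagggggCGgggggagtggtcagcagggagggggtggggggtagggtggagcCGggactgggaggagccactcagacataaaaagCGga
Meg3: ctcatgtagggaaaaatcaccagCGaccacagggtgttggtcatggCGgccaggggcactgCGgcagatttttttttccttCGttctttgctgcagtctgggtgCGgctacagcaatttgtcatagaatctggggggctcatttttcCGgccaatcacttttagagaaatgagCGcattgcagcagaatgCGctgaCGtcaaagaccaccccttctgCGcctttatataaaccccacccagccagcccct
Peg3: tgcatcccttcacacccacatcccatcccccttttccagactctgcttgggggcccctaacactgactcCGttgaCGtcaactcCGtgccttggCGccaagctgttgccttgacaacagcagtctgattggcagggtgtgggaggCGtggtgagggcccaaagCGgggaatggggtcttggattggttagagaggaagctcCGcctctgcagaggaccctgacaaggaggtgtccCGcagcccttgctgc
Ndn: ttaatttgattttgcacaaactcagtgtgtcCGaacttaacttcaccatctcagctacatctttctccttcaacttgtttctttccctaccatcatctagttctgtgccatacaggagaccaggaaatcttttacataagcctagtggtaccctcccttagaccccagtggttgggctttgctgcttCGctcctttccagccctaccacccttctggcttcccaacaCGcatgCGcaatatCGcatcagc

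The 4 windows held 6, 10, 8 and 5 CpGs in this order, and the 15 windows of the imprinted genes ranged from 0 (the second *Meg3* start) to 40 (the first *Grb10* start). Their median was 8 CpGs and 60.4% GC, against 6 CpGs and 52.4% GC over 32807 windows of 26987 genes, of which the middle ones (lower to upper quartile) held 2 to 16 CpGs. Altogether 3 motifs were searched on both strands. The E-box CAGCTG, a site of myogenic regulatory factors, was in 1 window (*Mest*) and in 13% of all windows. GGGGCCCC was in 1 window (*Peg3*) and in 0.884% of all windows, and TATAAA was in 1 window (*Meg3*, where it overlaps its own reverse complement TTTATA) and in 12.4% of all windows. A gene count cannot tell which start was used.

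**Figure D1:**
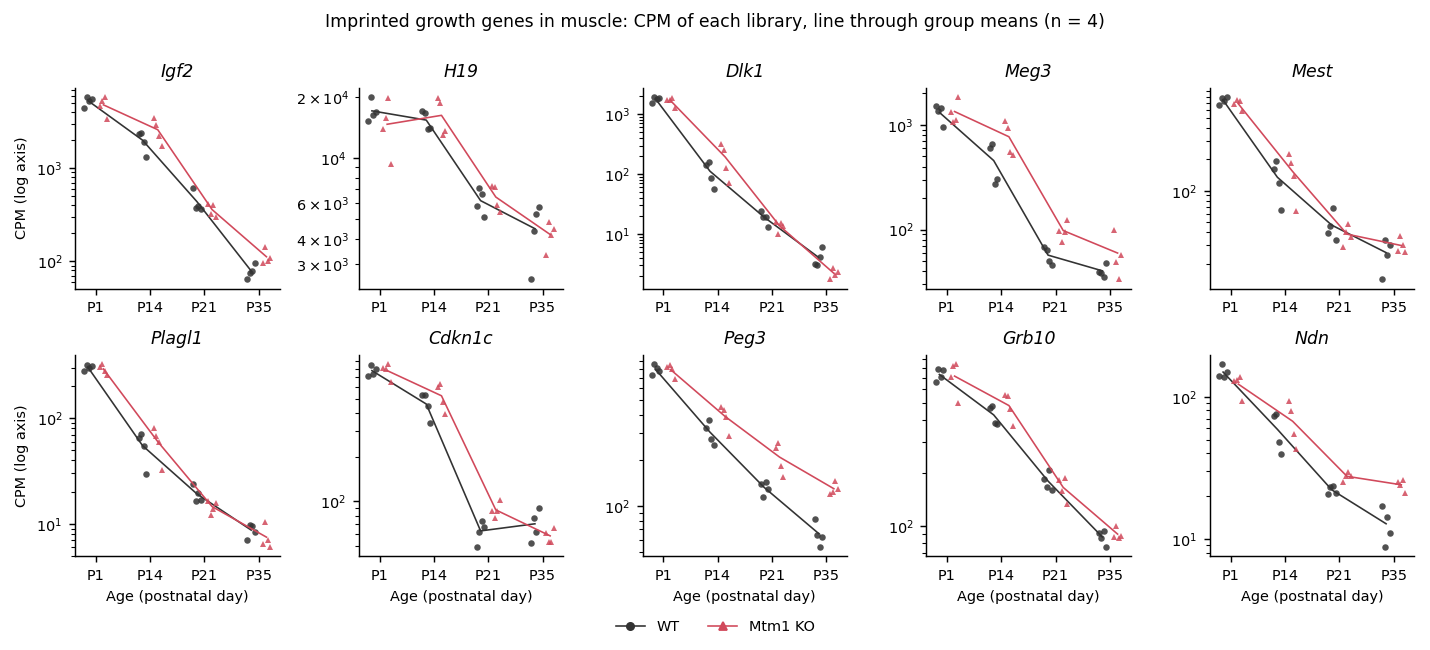
CPM of each of the 10 imprinted genes in every library (log axis) at P1, P14, P21 and P35, with 1 point per library (WT circles, KO triangles) and lines through the means of 4. In each panel the P35 points lie below the P1 points in both genotypes, by the least for *H19* and by the most for *Dlk1*.

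First, the course after birth was followed in WT muscle. All 10 genes were lower at P35 than at P1, with no overlap between the libraries of the 2 ages. They were differentially expressed genes (DEGs), which here means a Benjamini-Hochberg adjusted *P*-value under 0.01 and a fold change above 1.5 in edgeR's quasi-likelihood test over all genes. Of the 17316 genes tested, 35.4% were lower DEGs and 42.9% were lower with no overlap. Because the 10 genes were chosen with earlier results known, such shares are set beside them as a description only. The log2 fold change (log2FC) had a median of -4.24 over the 10 genes and -0.14 over all genes tested. Together the 10 genes took 4.36% ± 0.300 (SD, n=4) of all counts at P1. The share was 1.72% ± 0.360 at P14, then 0.559% ± 0.0877 at P21 and finally 0.362% ± 0.108 at P35. *H19* supplied more of these counts than any other of the 10 genes at each age, so it weighs most in the share. Its mean was 17050 CPM at P1 and 4482 CPM at P35. In tissue RNA, fewer cells that express a gene and less RNA per cell cannot be told apart.

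Among the growth promoters, *Dlk1* and *Igf2* showed the deepest falls. *Igf2*, which encodes the secreted fetal ligand of the IGF1 receptor, was at 4476, 5843, 5333 and 5525 CPM at P1 in WT and at 2351, 2406, 1911 and 1335 CPM at P14. It was at 615, 376, 396 and 366 CPM at P21 and at 63.8, 75.4, 78.7 and 96.8 CPM at P35. Each age lay wholly below the one before, and the P35 mean was 1.49% of the P1 mean. The steps had log2FCs of -1.41 (SE 0.192, adjusted *P*=8.68e-05), -2.20 (SE 0.226, adjusted *P*=0.000561) and -2.49 (SE 0.186, adjusted *P*=0.000558), so the level went on falling between P21 and P35.

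*Dlk1*, which encodes a transmembrane relative of the Notch ligands that affects myoblast and adipocyte differentiation, was at 1560, 1957, 1804 and 1829 CPM at P1 and at 142, 162, 87.7 and 56.4 CPM at P14. It was at 23.9, 19.6, 19.6 and 13.2 CPM at P21 and at 3.19, 3.04, 4.08 and 6.02 CPM at P35. In CPM, most of its fall was complete by P14, when 6.26% of the P1 mean was left. The level went on falling on the log2 scale, and 0.228% was left at P35. From P1 to P35 its log2FC was -8.79 (SE 0.252, adjusted *P*=2.96e-09), the largest of the 10 genes.

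The neighbours of these ligands, both non-coding RNAs, had smaller falls. *H19*, the precursor of a microRNA, was at 15128, 20024, 16297 and 16753 CPM at P1 and at 16992, 16589, 13860 and 13975 CPM at P14. It was at 5814, 7129, 6604 and 5090 CPM at P21 and at 2520, 4376, 5320 and 5711 CPM at P35. The P1 and P14 libraries overlapped (log2FC -0.16, SE 0.162, adjusted *P*=0.376), the fall between P14 and P21 was -1.33 (SE 0.161, adjusted *P*=0.00105), and 26.3% of the P1 mean was left at P35. The P14 result depends on the scaling: with library totals in place of TMM, *H19* was lower at P14 than at P1 by a log2FC of -0.92, while the median of all genes shifted by -0.77.

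*Meg3* was at 1534, 1348, 1446 and 950 CPM at P1 and at 601, 651, 272 and 302 CPM at P14. It was at 67.7, 64.3, 50.1 and 45.9 CPM at P21, and lastly at 39.3, 38.6, 35.5 and 47.8 CPM at P35. On the log2 scale its largest step was between P14 and P21 (log2FC -3.01, SE 0.304, adjusted *P*=0.000545). The P21 and P35 libraries overlapped (log2FC -0.51, SE 0.132, adjusted *P*=0.0286), and 3.06% of the P1 mean was left at P35.

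The transcription factors *Plagl1* and *Peg3*, both zinc finger proteins, and *Mest*, which encodes a hydrolase-like membrane protein, also fell. *Plagl1* was at 276 to 317 CPM at P1 and 7.11 to 9.81 CPM at P35 (2.92% of the P1 mean). *Mest* was at 666 to 800 CPM at P1 and 14.1 to 33.4 CPM at P35 (3.43%). By P14, 18.4% of the P1 mean was left for *Plagl1* and 18.1% for *Mest*. *Peg3* fell from 725 to 859 CPM at P1 to 53.6 to 82.5 CPM at P35, with 38.6%, 16.7% and 8.29% of the P1 mean left at P14, P21 and P35.

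The growth inhibitors were lower DEGs at P14 as well. *Cdkn1c*, which encodes the cyclin-dependent kinase inhibitor p57, kept 59.3% of its P1 mean at P14 and 8.14% at P21, and the step between them was a log2FC of -2.87 (SE 0.177, adjusted *P*=0.000108). Its libraries then overlapped, with 49.1 to 74.0 CPM at P21 and 52.3 to 90.4 CPM at P35 (log2FC 0.14, SE 0.181, adjusted *P*=0.614). *Grb10*, an adaptor that dampens insulin and IGF1 receptor signalling, kept 58.8% of its P1 mean at P14, 24.6% at P21 and 11.8% at P35. *Ndn*, which encodes necdin, a MAGE family protein that restrains proliferation and promotes differentiation, kept 39.5%, 14.8% and 8.56%.

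Counted by step in WT, 9 of 10 genes were lower DEGs at P14 than at P1 (30.4% of all genes tested), *H19* being the exception. Between P14 and P21, 9 of 10 were lower DEGs, against 2.6% of all genes tested, and *Mest* just missed the threshold (log2FC -1.53, SE 0.325, adjusted *P*=0.0101). Between P21 and P35, 5 of 10 were lower DEGs (*Igf2*, *Dlk1*, *Plagl1*, *Peg3* and *Grb10*), against 1.05% of all genes tested. The P21 libraries also carried more of 6 erythroid markers. These summed to 3171 to 4351 CPM in WT at P21, against 443 to 756 CPM at P14 and 190 to 584 CPM at P35. In KO the sums were 1623 to 3281 CPM at P21, against 335 to 533 CPM at P14 and 222 to 433 CPM at P35. The part of blood cells in these steps was not tested.

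The order of the levels per kilobase of exon changed with age. At P1 the mean in WT was 6931 CPM per kb for *H19*, 925 for *Igf2*, 380 for *Cdkn1c*, 316 for *Dlk1* and 188 for *Mest*, and the libraries of neighbours in this order did not overlap. *Grb10* (80.4), *Meg3* (72.9) and *Peg3* (59.5) followed with overlapping neighbours, and *Ndn* (40.4) and *Plagl1* (38.3) overlapped each other. At P35 *H19* was still the highest at 1822 CPM per kb and *Cdkn1c* (34.6) was above *Igf2* (13.7), with no overlap. From *Grb10* (9.49) through *Mest* (6.46), *Peg3* (4.93) and *Ndn* (3.46) to *Meg3* (2.23) each gene overlapped the next, and *Plagl1* (1.12) and *Dlk1* (0.722), the lowest, overlapped each other.

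**Figure D2:**
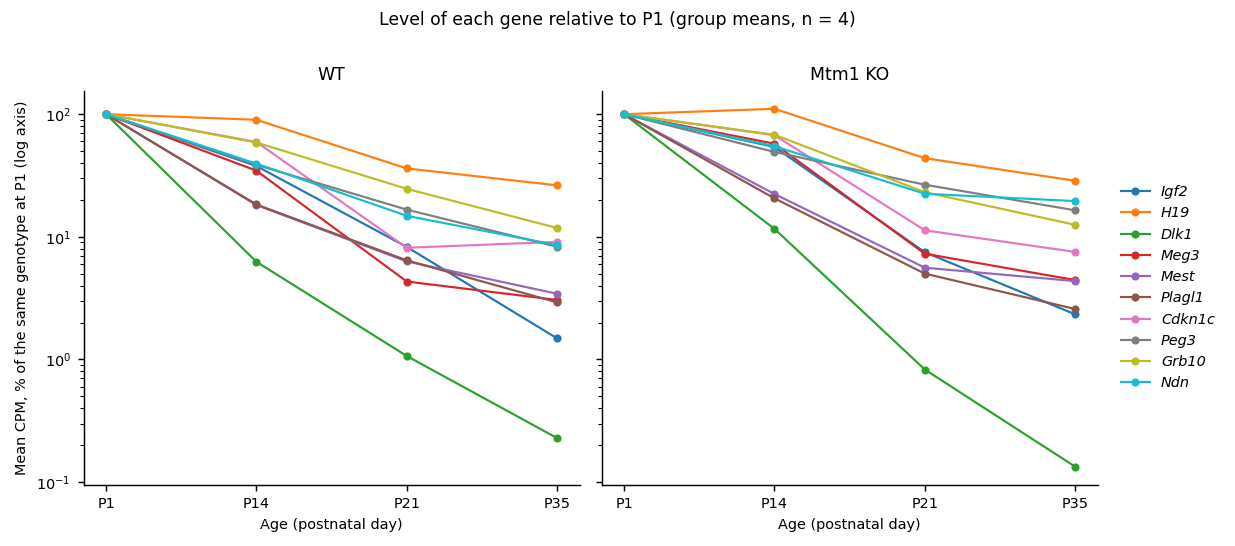
Mean level of each of the 10 genes as a percentage of its own mean at P1 (log axis) at the 4 ages, evenly spaced, in WT and in KO. *H19* stays highest, at 26.3% in WT and 28.7% in KO at P35, and *Dlk1* ends lowest, at 0.228% and 0.134%.

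KO muscle went through the same 4 ages. All 10 genes were lower DEGs at P35 than at P1 in KO, again with no overlap, against 30.5% of all genes tested as lower DEGs and 36.2% as lower with no overlap. Their log2FCs ran from -1.82 for *H19* to -9.57 for *Dlk1*, with a median of -4.14, and -0.08 over all genes. At P14, 7 of 10 were lower DEGs than at P1 (29.1% of all genes tested), without *H19*, *Meg3* and *Grb10*. Leaving out 1 library at a time gave 4 to 8 of 10 in this comparison, with 4 reached without replicate 1, 2 or 3 of P1 or replicate 3 of P14. Between P14 and P21, 10 of 10 were lower DEGs in KO, against 3.74% of all genes tested, and between P21 and P35, 4 of 10 (*Igf2*, *Dlk1*, *Plagl1* and *Grb10*), against 1.94%.

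The P1 libraries differed from the later ones in more than these genes. The summed level of 10 proliferation markers fell in WT from 306 to 351 CPM at P1 to 14.5 to 36.4 CPM at P35, and all 10 were lower DEGs. The 10 fibroblast markers summed to 17774 to 24178 CPM at P1 and 4052 to 6005 CPM at P35, with 8 of 10 lower DEGs and 1 higher, and all 9 keratinocyte markers were lower DEGs. The part of these cells in the fall of the imprinted genes was not tested. With P14 in place of P1 as the earlier age, an alternative chosen after seeing the data, all 10 genes were lower DEGs at P35 in both genotypes. At P14 the keratinocyte markers summed to 9.68 to 21.8 CPM and the chondrocyte and osteoblast markers to 4.78 to 27.4 CPM. Proliferation markers still fell from P14, when they summed to 65.0 to 171 CPM in WT and 42.0 to 201 CPM in KO. At P35 they were at 14.5 to 36.4 CPM and 19.4 to 36.4 CPM. Fibroblast markers were at 5605 to 11889 CPM in WT at P14 and overlapped P35. The part of these cells in the fall from P14 was not tested either.

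**Figure D3:**
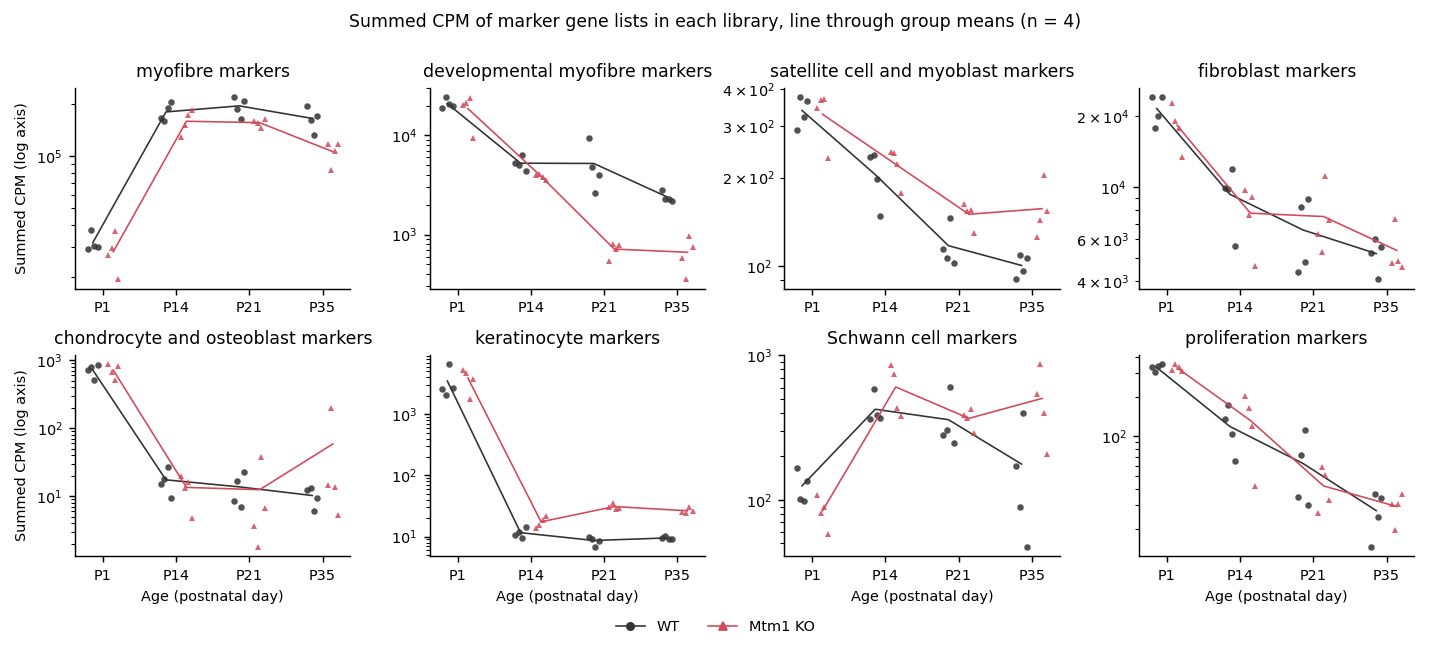
Summed CPM of 8 marker lists in every library (log axis) by age, with 1 point per library (WT circles, KO triangles) and lines through the means of 4. Keratinocyte, chondrocyte and osteoblast, and proliferation markers are highest at P1, and myofibre markers are lowest there.

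Next, KO was compared with WT at each age. At P1, 0 of 10 genes were DEGs in edgeR's test, where 0.0442% of 18100 genes tested were, and 0 of 10 by DESeq2. None had an unadjusted *P*-value under 0.05, against 10.9% of all genes, and the log2FCs ran from -0.27 to 0.04. *Ndn* was the gene at -0.27 (SE 0.123, adjusted *P*=0.476), with 138 to 170 CPM in WT and 94.1 to 137 CPM in KO. Its libraries did not overlap, as was the case for 4.78% of all genes in this direction. KO replicate 4 was the lowest KO library for 9 of the 10 genes, and the share of all genes lowest in it was not counted.

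At P14, 0 of 10 genes were DEGs (0.0318% of 15728 genes tested), 0 of 10 by DESeq2, and none had an unadjusted *P*-value under 0.05, against 6.82% of all genes. All 10 log2FCs were above 0, from 0.08 for *H19* to 0.79 for *Dlk1*, with a median of 0.19 against 0.00 over all genes. The libraries of this age were spread by replicate number, since replicates 1 and 2 were above replicates 3 and 4 for 10 of 10 genes in both genotypes. The 10 proliferation markers were also higher in replicates 1 and 2, summing to 135, 171, 104 and 65.0 CPM in WT, against 201, 165, 120 and 42.0 CPM in KO. The 5 Schwann cell markers summed to 365, 582, 384 and 366 CPM in WT, against 865, 742, 429 and 384 CPM in KO, and were higher in KO within 4 of 4 same-numbered pairs, with 0 DEGs. Developmental myofibre markers, a list of 7 such as *Myh3*, did not overlap, at 4382 to 6294 CPM in WT and 3540 to 4110 CPM in KO, with 1 higher DEG. The part of these cells in the P14 differences was not tested. *Dlk1*, at the WT values given above, was at 322, 251, 128 and 70.5 CPM in KO, and *Meg3* was at 1084, 932, 550 and 520 CPM. Both were among the 6 of the 10 genes that were higher in KO within 4 of 4 same-numbered pairs. The share of all genes with this pattern, or with replicates 1 and 2 above 3 and 4, was not counted. At this age same-numbered libraries of the 2 genotypes varied together across all genes, and once the replicate number was a block in the model *Dlk1* (log2FC 0.68, adjusted *P*=0.00837) and *Meg3* (0.79, adjusted *P*=0.000464) were higher DEGs in KO. With the block, 0.623% of all genes tested were DEGs.

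At P21, 1 of 10 genes was a DEG, against 4.67% of 15179 genes tested. *Meg3* was at 67.7, 64.3, 50.1 and 45.9 CPM in WT and at 97.6, 75.4, 95.3 and 123 CPM in KO, so every KO library was above every WT library. Its log2FC was 0.79 (SE 0.160, adjusted *P*=0.00866). Leaving out 1 library at a time gave adjusted *P*-values from 0.00786 to 0.0273 and kept the call in 1 of 8 fits, that without KO replicate 2, and a fit of all 32 libraries gave 0.0679, whereas DESeq2 gave 7.26e-05.

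*Peg3*, *Cdkn1c* and *Ndn* were likewise higher in each KO library than in any WT library at P21, and with *Meg3* this made 4 of 10 genes without overlap in this direction, against 13.7% of all genes tested. *Peg3* was at 139, 115, 144 and 130 CPM in WT and at 241, 259, 183 and 156 CPM in KO (log2FC 0.68, SE 0.154, adjusted *P*=0.0140). *Cdkn1c* was at 49.1, 62.3, 74.0 and 66.7 CPM in WT and at 85.4, 77.5, 85.5 and 102 CPM in KO (0.48, SE 0.132, adjusted *P*=0.0299). *Ndn* was at 20.6, 23.3, 23.6 and 21.0 CPM in WT and at 25.1, 27.9, 29.4 and 27.8 CPM in KO (0.33, SE 0.084, adjusted *P*=0.0232). None of these 3 passed the threshold, although *Peg3* did with DESeq2. *Igf2*, *Dlk1*, *Mest*, *Plagl1* and *Grb10* had log2FCs below 0, from -0.11 to -0.46, with overlapping libraries, so the 10 genes did not share a direction at this age. Of the marker lists, 4 did not overlap between the genotypes at P21. The developmental myofibre markers summed to 2638 to 9404 CPM in WT and 543 to 809 CPM in KO, with 2 higher and 1 lower DEG. Myofibre markers were at 165322 to 221154 CPM in WT and 146243 to 164265 CPM in KO, and 8 endothelial markers at 657 to 986 CPM and 534 to 629 CPM, with 0 DEGs in either list. The 9 keratinocyte markers summed to 6.81 to 10 CPM in WT and 28.7 to 35.4 CPM in KO, with 1 higher DEG of 2 tested and 3 of the 9 at 0 in each genotype. Macrophage markers overlapped, at 68.5 to 79.3 CPM and 74.3 to 94.7 CPM, with 2 of 5 higher DEGs, as did the 10 satellite cell and myoblast markers, at 102 to 146 CPM and 130 to 163 CPM, with 1 higher and 3 lower DEGs. Mitochondrial transcripts took 9.75% to 12% of the counts in WT and 8.21% to 8.78% in KO. The part of these differences in those of the imprinted genes was not tested.

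At P35, 2 of 10 genes were DEGs, both higher in KO. Of 15595 genes tested, 8.49% were higher DEGs and 7.52% were lower DEGs. *Peg3* was at 82.5, 64.3, 53.6 and 62.4 CPM in WT and at 119, 123, 147 and 130 CPM in KO. Its libraries did not overlap, which held for 19.2% of all genes in this direction, and its log2FC was 1.01 (SE 0.129, adjusted *P*=0.000418). The KO mice thus kept 16.5% of their P1 mean at P35 and the WT mice 8.29%, and *Peg3* remained a DEG in each of the 8 fits without 1 library.

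*Ndn* was at 17.0, 8.78, 14.3 and 11 CPM in WT and at 24.9, 24.0, 26.0 and 21.0 CPM in KO at P35. Again every KO library was above every WT library, with a log2FC of 0.93 (SE 0.184, adjusted *P*=0.00336). Without WT replicate 4 or KO replicate 3 it was no longer a DEG, at adjusted *P*-values of 0.0123 and 0.0112. *Ndn* stayed near its P21 level in KO, with 22.5% and 19.6% of the P1 mean at P21 and P35, against 14.8% and 8.56% in WT.

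*Dlk1* went the other way at P35, with 1.75, 2.70, 2.10 and 2.33 CPM in KO, each below the lowest WT library at 3.04 CPM. The log2FC of -0.85 (SE 0.239, adjusted *P*=0.0181) missed the threshold in edgeR and passed it in DESeq2 (adjusted *P*=0.00235). It was the only one of the 10 genes wholly lower in KO, and 20.4% of all genes tested did not overlap in this direction. *Igf2* was at 96.3, 142, 99.6 and 110 CPM in KO and overlapped WT by 1 library of each genotype (log2FC 0.53, SE 0.154, adjusted *P*=0.0205). *Meg3* was at 99.4, 48.7, 33.4 and 57.3 CPM in KO (0.59, SE 0.280, adjusted *P*=0.118). KO replicate 3 was below the WT range of 35.5 to 47.8 CPM, and the other KO libraries were above it. The other 5 genes had log2FCs from -0.25 (*Cdkn1c*) to 0.25 (*Mest*).

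**Figure D4:**
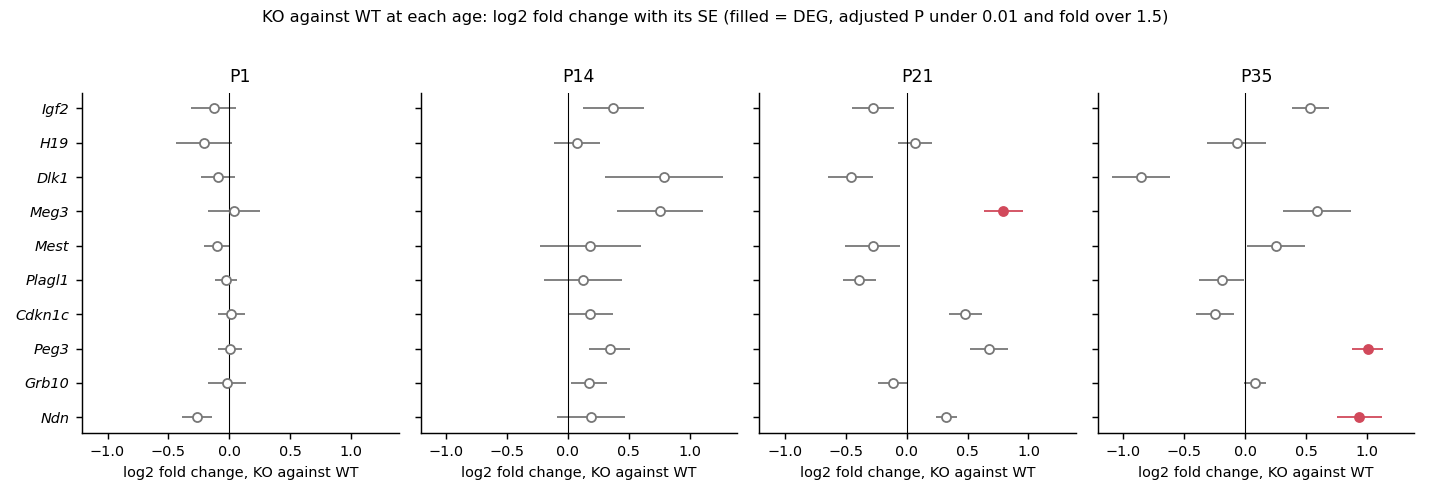
Log2 fold change (log2FC) of KO against WT for each of the 10 genes at P1, P14, P21 and P35, with bars of 1 SE and filled points for DEGs. *Meg3* is filled at P21 (0.79), and *Peg3* (1.01) and *Ndn* (0.93) at P35.

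These P35 values depend in part on the scaling. With library totals in place of TMM the median log2FC of all genes at P35 moved up by 0.40, *Igf2* became a DEG (0.94, adjusted *P*=0.00103), *Dlk1* went to -0.44 (adjusted *P*=0.140), and *H19*, *Plagl1* and *Cdkn1c*, none of which was a DEG, changed sign. *Peg3* (1.41) and *Ndn* (1.34) stayed DEGs. Mitochondrial transcripts took 12.4% to 17.9% of the counts in WT and 10.3% to 10.5% in KO at P35.

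Other cell type markers moved with genotype as well. At P35 the summed level of 10 satellite cell and myoblast markers was 90.3 to 110 CPM in WT and 126 to 204 CPM in KO, with 1 higher and 3 lower DEGs among the 10. The 10 myofibre markers summed to 132913 to 195417 CPM in WT and 83555 to 117223 CPM in KO, with 1 lower DEG, and 5 adipocyte markers to 5.23 to 25.5 CPM in WT and 41.3 to 168 CPM in KO, with 4 higher DEGs. Fibroblast markers overlapped, at 4052 to 6005 CPM in WT and 4571 to 7349 CPM in KO, as did proliferation markers, at 14.5 to 36.4 CPM and 19.4 to 36.4 CPM. The 7 developmental myofibre markers summed to 2202 to 2804 CPM in WT and 352 to 957 CPM in KO, although 6 of them were higher DEGs and 1 was lower. The 9 keratinocyte markers summed to 9.12 to 10.2 CPM in WT and 24.7 to 30.0 CPM in KO, with 1 higher DEG of 2 tested. Endothelial markers overlapped, at 391 to 734 CPM and 364 to 455 CPM, with 3 of 8 lower DEGs. So did macrophage markers, at 53.2 to 66.3 CPM and 57.8 to 81.1 CPM, with 2 of 5 higher DEGs, and Schwann cell markers, at 47.3 to 401 CPM and 207 to 871 CPM, with 0 of 5 DEGs. No marker of these lists was at 0 in all 4 libraries of a genotype at P35. The part of these cells in the higher *Peg3* and *Ndn* of KO was not tested.

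The change of the KO effect from one age to the next was tested in 1 fit of all 32 libraries. None of the 10 genes passed an adjusted *P*-value of 0.01 in edgeR or in DESeq2, for P14 against P1 (0.0161% of 18583 genes tested passed), P21 against P14 (0.425%) or P35 against P21 (0.463%). At an unadjusted *P*-value under 0.05 there were 0, 2 and 3 genes, against 6.46%, 12.9% and 17.4% of all genes. They were *Dlk1* (-1.26, SE 0.456, adjusted *P*=0.193) and *Igf2* (-0.66, SE 0.301, adjusted *P*=0.340) between P14 and P21, and *Cdkn1c* (-0.75, SE 0.230, adjusted *P*=0.0791), *Igf2* (0.80, SE 0.302, adjusted *P*=0.162) and *Ndn* (0.60, SE 0.289, adjusted *P*=0.284) between P21 and P35. So a KO effect called at 1 age is not shown to differ from that at the age before or after, and ages further apart were not compared.

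The 2 pairs of neighbours were also set against each other within each library, as a ratio of CPM per kb. This was chosen after the values had been seen, and the ratios are given as a description. The ratio of *H19* to *Igf2* in WT was 7.05 to 7.97 at P1 and 16 to 24.4 at P14, then 22 to 44.1 at P21, and reached 91.9 to 157 at P35. It rose with age in KO too, to 79.2 to 97.7 at P35, where both genotypes overlapped.

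The ratio of *Meg3* to *Dlk1* was below 1 at P1, with 0.162 to 0.308 in WT and 0.185 to 0.456 in KO, and 0.970 to 1.68 in WT and 1.05 to 2.31 in KO at P14. At P21 it was 0.887, 1.03, 0.801 and 1.09 in WT and 1.93, 2.35, 1.92 and 2.83 in KO. At P35 it was 3.86, 3.97, 2.72 and 2.49 in WT and 17.7, 5.64, 4.97 and 7.68 in KO. The genotypes did not overlap at P21 or P35, with more *Meg3* for each *Dlk1* in KO.

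**Figure D5:**
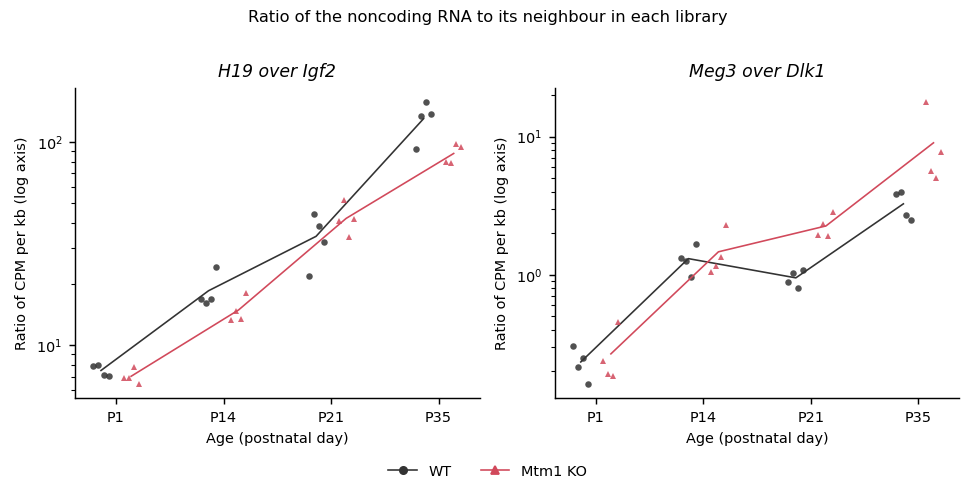
Ratio of CPM per kb within each library (log axis) of *H19* to *Igf2* and of *Meg3* to *Dlk1* by age, with 1 point per library (WT circles, KO triangles) and lines through the means of 4. Both ratios rise from P1 to P35, and WT and KO separate for *Meg3* to *Dlk1* at P21 and P35.

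Another 2 RNAs of the *Dlk1* and *Meg3* locus were followed because they lie downstream of *Meg3*, a choice made after their values were seen. *Mirg* was at 3.33 to 4.52 CPM in WT and 6.16 to 12.1 CPM in KO at P21, a higher DEG like *Meg3* (log2FC 1.21, SE 0.200, adjusted *P*=0.00364). *Rian* had a log2FC of 0.75 (SE 0.227, adjusted *P*=0.0438) at P21. Neither was a DEG at P35, at 0.71 (SE 0.364, adjusted *P*=0.145) and -0.05 (SE 0.281, adjusted *P*=0.904).

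The other genes of the imprinted class did not fall as uniformly. Of 51 other imprinted genes, 45 could be tested between P1 and P35 in WT, of which 23 were lower and 10 higher DEGs, against 35.4% and 28.8% of all genes tested, with a median log2FC of -0.90. The 3 largest falls were those of *Rtl1*, a retrotransposon-derived gene of the *Dlk1* locus, *Magel2*, a relative of *Ndn*, and *Peg10*, also retrotransposon-derived. *Rtl1* was at 210 to 308 CPM in WT at P1 and had no count in any WT library at P35, at least 3499-fold lower against a floor of 3 counts per library. *Magel2* fell from a mean of 16.9 to 0.0407 CPM (at most 4 counts in any WT library at P35) and *Peg10* from 157 to 1.83 CPM. The largest rises were those of *Snrpn*, from 6.87 to 56.5 CPM, *Snurf*, which shares its transcript with *Snrpn* so that the split of reads between them is uncertain, and *Zrsr1*, from 6.05 to 19.8 CPM.

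Between KO and WT, 2 of 41 other imprinted genes tested were higher and 1 was a lower DEG at P21, and 9 were higher and 1 lower at P35. Over all genes, 4.67% were DEGs at P21, and 8.49% were higher and 7.52% lower at P35. *Peg10* was higher in KO at P21 (log2FC 0.69, adjusted *P*=0.00687) and at P35 (1.99, SE 0.215, adjusted *P*=0.000202), at 1.70 to 1.92 CPM in WT and 4.39 to 9.30 CPM in KO at P35. *Snrpn* was lower in KO at both ages (-0.91 and -0.95), and *Cd81*, a tetraspanin, was higher at P35 (0.75, SE 0.107, adjusted *P*=0.000653). The list had a median log2FC of 0.19 at P35, against 0.04 over all genes.

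The receptors and carriers of the IGF ligands were taken from a list of 22 genes of the IGF axis, of which 12 of 21 tested were lower and 5 higher DEGs at P35 than at P1 in WT (35.4% and 28.8% of all genes). *Igf1r*, the signalling receptor of IGF2, fell from a mean of 54.7 to 27.5 CPM, *Igf2r*, which clears IGF2 and is itself imprinted in mice, from 318 to 132 CPM, and *Igf1*, the postnatal ligand, from 160 to 55.0 CPM. These falls were far smaller in size than that of *Igf2*. The *Igf2* mRNA binding proteins fell more, with *Igf2bp1* from 9.31 to 0.0120 CPM, *Igf2bp2* from 39 to 1.29 CPM and *Igf2bp3* from 27.6 to 0.675 CPM. At P35 no WT library held more than 1 count of *Igf2bp1*, which leaves the size of its fall uncertain. In the opposite direction *Ghr*, the growth hormone receptor, rose from 43.2 to 179 CPM.

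At P35, 3 of 20 IGF axis genes were higher and 3 lower in KO than in WT, against 8.49% and 7.52% of all genes. *Igfbp2*, an IGF carrier, was higher by a log2FC of 2.92 (SE 0.430, adjusted *P*=0.000791) and *Igf2bp2* by 1.99 (SE 0.316, adjusted *P*=0.00116). *Ghr* was lower (-0.91, SE 0.123, adjusted *P*=0.000517), as was *Igfals*, which stabilises circulating IGF complexes (-1.16, SE 0.164, adjusted *P*=0.000639). *Igf1* (0.11, adjusted *P*=0.754), *Igf1r* (0.24, adjusted *P*=0.0403) and *Igf2r* (-0.02, adjusted *P*=0.889) were not DEGs.

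A list of 17 growth programme genes that are not imprinted, 3 of them the *Igf2bp* genes above, had 15 lower and 1 higher DEG at P35 against P1 in WT, against 35.4% and 28.8% of all genes, with a median log2FC of -2.84. The largest falls were those of *Igf2bp1*, *Hmga2*, a chromatin protein of proliferating fetal cells (from a mean of 5.32 to 0.0118 CPM), and *Lin28b*, a repressor of *let-7* microRNAs (from 0.346 CPM to no count in any library). *Hmga2* too had at most 1 count in any WT library at P35, so the size of its fall is uncertain. Against the floor of 3 counts per library *Lin28b* was at least 4.88-fold lower. In KO at P35, 4 of 14 tested were higher DEGs, against 8.49% of all genes.

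The genes with the most similar profile over the 8 groups were sought among 18583 and are given for the 4 genes of the neighbouring pairs, by the root mean square difference of log2 levels relative to WT at P1. For *Igf2* they were *Ddc* (0.58), *Ly6h* (0.69) and *Mirg* (0.72), and for *Meg3* they were *Ddc* (0.40), *Mirg* (0.45) and *Cpa5* (0.51). For *Dlk1* they were *Agtr2* (0.66), *Nrk* (1.06) and the imprinted *Magel2* (1.18). *Agtr2*, an angiotensin II receptor, fell in WT from 164 to 175 CPM at P1 to 0.187 to 0.404 CPM at P35 (log2FC -9.32, SE 0.147, adjusted *P*=3.64e-10). For *H19* they were *Adgrb1* (0.22), *Gm15559* (0.22) and *Sox8* (0.23), of which the first pair stayed below 1 CPM. *Ndn*, added here after its values were seen because it was a DEG at P35, had *Prc1* (0.24), *Nuf2* (0.24) and *Diaph3* (0.28) as its nearest.

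Some levels may include reads of overlapping genes, since the strand setting of the counting is not given in the sources used here. Of the *Igf2* exon bases 62.8% are shared with *Gm49394* on the same strand, which was at a mean of 6.81 CPM in WT at P1. *Copg2* overlaps 23.1% of the *Mest* exon bases and *Gm44732* overlaps 30.7% of those of *Cdkn1c*, both on the opposite strand. In WT *Copg2* had a mean of 36.8 CPM at P1, where *Mest* was at 742 CPM, and 28.7 CPM at P35, where *Mest* was at 25.5 CPM. *Gm44732* had a mean of 0.272 CPM in WT at P35, where *Cdkn1c* was at 70.4 CPM. The part of *Copg2* reads in the late *Mest* level was not tested.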

How the data were processed

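Muscle RNA of WT and KO mice was sequenced as poly(A)-selected, directional, paired-end libraries (n=4 per genotype and age, 32 libraries). The authors deposited expected counts per Ensembl gene, and the submitters' processing notes name STAR 2.6.1, RSEM 1.2.22 and DESeq2. The expected counts carry no normalization, 4.26% of the values were not whole, and they were rounded before testing. No deposited column was left unused. Replicate libraries were compared, and none agreed within sampling noise, so the spread between them sets the precision.

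Symbols were joined from GENCODE M21 (GRCm38). edgeR 4.0.16 (R 4.3.3) was run with filterByExpr, TMM and the quasi-likelihood test on the 8 libraries of each comparison, and a change of the KO effect was tested in 1 fit of all 32. Standard errors are the log2 fold change divided by the square root of *F*. DEGs had a Benjamini-Hochberg adjusted *P*-value under 0.01 and a fold change above 1.5. The 10 genes and all lists were chosen with earlier results of these data known. The genes named beside the 10 were the 3 largest falls, the 3 largest rises and the 3 smallest adjusted *P*-values of the list of other imprinted genes, fixed genes and the 3 smallest adjusted *P*-values of the IGF axis, the 3 largest falls of the growth programme, and the 3 nearest profiles of 4 genes.

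Library totals were 49321035 to 85631408 counts. The fits were tested on simulated data, where 200 of 200 genes changed by 2-fold were recovered for KO against WT at P35, with 2 false calls. This recovery holds only for the spread and levels set in the simulation. It does not show that every 2-fold change in the real libraries would be found, because their spread differed widely from gene to gene. *P*-values measure the spread between these libraries. The labels tie same-numbered libraries to no shared animal, litter or batch, but at P14 the 2 genotypes' libraries of each number departed together from their group means (r=0.252, 0.290, 0.190 and 0.588), so values with the replicate number as a block are given there. Alternatives were DESeq2 1.42.0, its size factors, library totals, other filters, thresholds and fits, and leaving out each library.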

Additional observations from a re-analysis of the deposited data

Results flagged for a closer look

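Across the 10 genes and the 2 neighbour ratios, 96 groups of 4 libraries were examined for a library far from the other three, by Dixon's test at the 95% level, which chance alone passes in about 1 in 20 groups. There were 2 such libraries. *Igf2* in WT at P21 was 615 CPM in replicate 1, against 366 to 396 CPM in the other libraries of the group. The ratio of *H19* to *Igf2* per kb in WT at P14 was 24.4 in replicate 4, against 16 to 16.9 in the others.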

How the results depend on the processing

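The number of the 10 genes called at each comparison changed as follows. For KO against WT at P14 it was 0, and 2 with the replicate block. For KO against WT at P21 it was 1, and 2 with DESeq2 or with no filter on low counts, 3 with library totals, 0 with the replicate block, 4 at an adjusted *P*-value under 0.05 with no fold threshold, and 0 to 1 when a library was left out, 1 being reached without KO replicate 2 (*Meg3*) or KO replicate 4 (*Peg3*). For KO against WT at P35 it was 2, and 3 with DESeq2 (*Dlk1* in addition) or with library totals (*Igf2* in addition), 4 at an adjusted *P*-value under 0.05 with no fold threshold, and 1 to 2 when a library was left out. For P21 against P14 it was 9 in WT and 10 in KO, and 6 (without *H19*, *Plagl1* and *Ndn*) and 8 (without *Mest* and *Ndn*) with the replicate block, and 8 to 10 and 7 to 10 when a library was left out. For P35 against P21 it was 5 in WT and 4 in KO, and 3 (without *Dlk1* and *Plagl1*) and 2 (without *Plagl1* and *Grb10*) with the replicate block, 4 to 5 and 3 to 4 when a library was left out, and in KO 7 at an adjusted *P*-value under 0.05 with no fold threshold. For P14 against P1 in KO it was 7, and 4 to 8 when a library was left out. The cause of these changes was not tested. No gene reversed a call, and all 10 genes stayed lower at P35 than at P1 in both genotypes under every alternative run. Apart from P14, same-numbered libraries did not vary together in every pair.

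Over all genes, the DEGs of KO against WT at P1 numbered 8, and 93 with DESeq2, 14 with no filter, 2 with the replicate block, 2 in 1 fit of 32 libraries and 44 at an adjusted *P*-value under 0.05. At P14 they numbered 5, and 53, 10, 98 and 15 with DESeq2, no filter, the block and the looser threshold. Of 15179 genes tested at P21 they numbered 709, and 1043 with DESeq2, 1157 with library totals and 3187 with the looser threshold. Of 15595 genes tested at P35 they numbered 2496, and 2997, 4676 and 6462 in the same order. Leaving out 1 library gave 0 to 15 DEGs at P1 and 1 to 4 at P14. For P21 the range was 417 to 626, over 1.5 times below 709 without WT replicate 1 or KO replicate 2 or 4, and for P35 1937 to 2450. At these depths the lowest level, *Dlk1* at P35, rested on 105 to 261 counts per library.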
